A study of Mus musculus with 2 samples.

Results

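The Schlafen genes described here are Slfn1, Slfn2, Slfn3, Slfn4, Slfn5, Slfn8 and Slfn9, taken by symbol from the annotated expression table. Each had 1 probe set, so no choice between probe sets had to be made, and they are 7 of the 22088 genes that the table names. All 7 passed a floor of 7 on the log2 scale on at least 1 array, as did 7835 genes in all. The data are Affymetrix Mouse Gene 1.0 ST arrays of polysomal RNA from bone marrow-derived macrophages, which were grown from C57BL/6J marrow for 7 days with 20% supernatant of L929 cells, a source of macrophage growth factor. One group was Oasl1-/- and the other wild-type. Both genotypes were given 10 µg/ml of poly(I:C), a mimic of viral double-stranded RNA, for 12 h, so no untreated cells stand beside them. Each genotype had 1 array, made from fractions 9, 10 and 11 of a 16-fraction sucrose gradient. The labels do not say from how many mice the marrow came. With 1 array per genotype no difference has a replicate error, no test was made and no p-value is given.

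Schlafen proteins are found in mammals and share an N-terminal region of the same name. In the mouse they come in 3 sizes. The short forms, Slfn1 and Slfn2, hold little beyond that region, the intermediate forms, Slfn3 and Slfn4, carry an added linker region, and the long forms, Slfn5, Slfn8 and Slfn9, end in a helicase-like region. Schlafen genes are known to be induced by type I interferon, which macrophages make after sensing double-stranded RNA, and members have been tied to restraint of cell growth and to cleavage or protection of tRNA. OASL1, the protein missing in one group, belongs to the oligoadenylate synthetases, is induced by interferon and is known to hold back translation of Irf7 mRNA.

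All Schlafen genes lie in 1 cluster on chromosome 11. The promoter sequences of 5 of them are shown, for Slfn4 and Slfn1 because their signals differed most between the arrays, and for Slfn8, Slfn9 and Slfn5 because they hold a match to the interferon-stimulated response element, the site bound by the interferon-activated transcription complex. They are RefSeq sequences of build GRCm38.p6, written 5′ to 3′ on the strand of the gene, from 250 bases before to 50 bases after the annotated start. Capitals mark the matches.
Slfn4, chr11:83174936-83175235, plus strand: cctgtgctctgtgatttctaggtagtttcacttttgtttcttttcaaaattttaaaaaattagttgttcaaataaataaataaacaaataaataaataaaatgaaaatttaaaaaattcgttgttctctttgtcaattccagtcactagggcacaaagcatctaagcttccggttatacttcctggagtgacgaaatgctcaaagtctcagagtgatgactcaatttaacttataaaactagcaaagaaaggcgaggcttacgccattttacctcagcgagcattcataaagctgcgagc
Slfn1, chr11:83116570-83116869, plus strand: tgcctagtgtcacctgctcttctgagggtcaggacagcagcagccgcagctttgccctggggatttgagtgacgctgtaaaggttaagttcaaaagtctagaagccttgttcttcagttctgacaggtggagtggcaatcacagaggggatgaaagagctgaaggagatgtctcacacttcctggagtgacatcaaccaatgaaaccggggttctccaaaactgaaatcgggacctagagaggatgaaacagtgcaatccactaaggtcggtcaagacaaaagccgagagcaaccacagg
Slfn8, chr11:83020761-83021060, minus strand: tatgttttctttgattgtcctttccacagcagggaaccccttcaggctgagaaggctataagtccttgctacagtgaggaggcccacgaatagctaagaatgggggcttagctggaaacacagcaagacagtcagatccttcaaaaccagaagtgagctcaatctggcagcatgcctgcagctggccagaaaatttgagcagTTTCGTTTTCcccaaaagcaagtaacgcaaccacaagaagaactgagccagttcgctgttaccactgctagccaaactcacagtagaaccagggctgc
Slfn9, chr11:82991781-82992080, minus strand: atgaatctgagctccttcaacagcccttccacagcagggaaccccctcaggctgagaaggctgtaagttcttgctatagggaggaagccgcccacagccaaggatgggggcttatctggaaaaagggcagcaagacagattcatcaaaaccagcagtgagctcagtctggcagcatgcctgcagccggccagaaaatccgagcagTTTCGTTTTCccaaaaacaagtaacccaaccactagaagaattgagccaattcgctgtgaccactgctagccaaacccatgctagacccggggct
Slfn5, chr11:82951852-82952151, plus strand: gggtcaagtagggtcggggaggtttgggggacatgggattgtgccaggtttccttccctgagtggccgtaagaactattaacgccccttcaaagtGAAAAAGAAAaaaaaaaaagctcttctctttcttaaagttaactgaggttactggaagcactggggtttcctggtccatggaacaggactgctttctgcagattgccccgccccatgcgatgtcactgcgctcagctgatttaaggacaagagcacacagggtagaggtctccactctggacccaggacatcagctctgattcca
Letters were searched on both strands. For the response element they were GAAA, any 2 bases and GAAA, and for the gamma-activated site bound by STAT dimers TTC, any 3 bases and GAA. All 7 members had a promoter in the RefSeq table, and Slfn8 had more than 1 (the window farther upstream is shown). The first motif was present in 3 members. It lay at -48 to -39 bases from the start in the window shown of Slfn8, at -45 to -36 in Slfn9 and at -155 to -146 in Slfn5. The site of Slfn8 and Slfn9 was the same 10 letters, TTTCGTTTTC, on the opposite strand of the motif, and that of Slfn5 was GAAAAAGAAA. Of all 32851 promoters of this length 3.44% held the first motif. Counted by gene, as for the members, 3.99% of 27025 genes had it in at least 1 promoter. The second motif was in none of the member windows and in 8.30% of all promoters. The windows of Slfn8 and Slfn9 were 80.5% identical in a global alignment, while the other 20 pairs of members lay between 41.9% and 49.4%. A match of letters is a description of the sequence and not a bound site, and no match says only that these letters are not in this window.

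**Figure D1:**
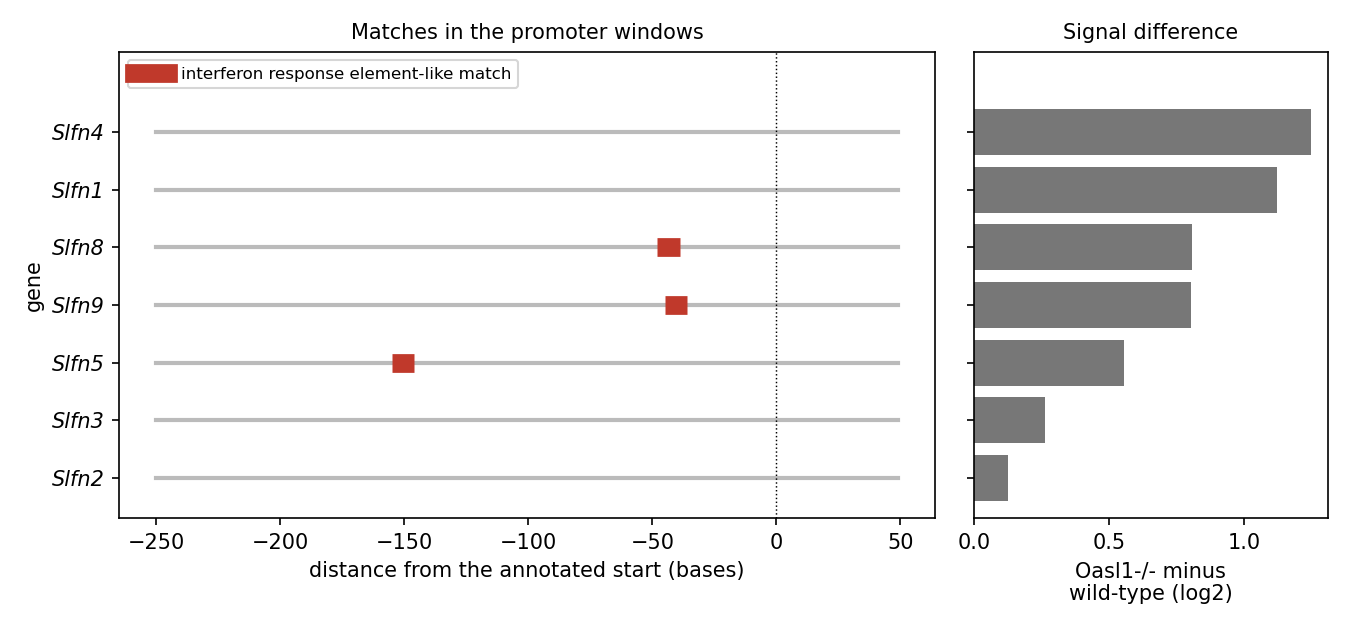
Left, the promoter window of each Schlafen gene by distance from the annotated start in bases, with the response element matches on either strand as thick marks (for Slfn8, the window farther upstream). Right, the signal difference, Oasl1-/- minus wild-type, on the log2 scale with 1 array per genotype; Slfn8, Slfn9 and Slfn5 have 1 mark each, while Slfn4 at 1.25, Slfn1 at 1.12, Slfn3 at 0.26 and Slfn2 at 0.13 have none.

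Polysomal signals of the Schlafen genes were higher in the Oasl1-/- array in all 7 members. The log2 differences, Oasl1-/- minus wild-type, ran from 0.13 for Slfn2 to 1.25 for Slfn4 (1.09-fold to 2.37-fold), with a median of 0.80 (1.74-fold). Over the 7835 genes past the floor the median difference was -0.09, and 39.1% of them were higher and 60.6% lower by any amount. The difference was at least 2-fold in 2 members, Slfn4 and Slfn1, against 1.57% of all genes (the wild-type signal of Slfn4 was not above background), and at least 1.5-fold in 4 members, with Slfn8 and Slfn9 added, against 5.27%. None of the 7 was at least 2-fold lower, against 0.651% of all genes. No total RNA was analysed here, so a larger pool of an mRNA and a fuller loading of it with ribosomes cannot be told apart. In such bulk samples, more RNA per cell and more cells of a kind cannot be told apart either.

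**Figure D2:**
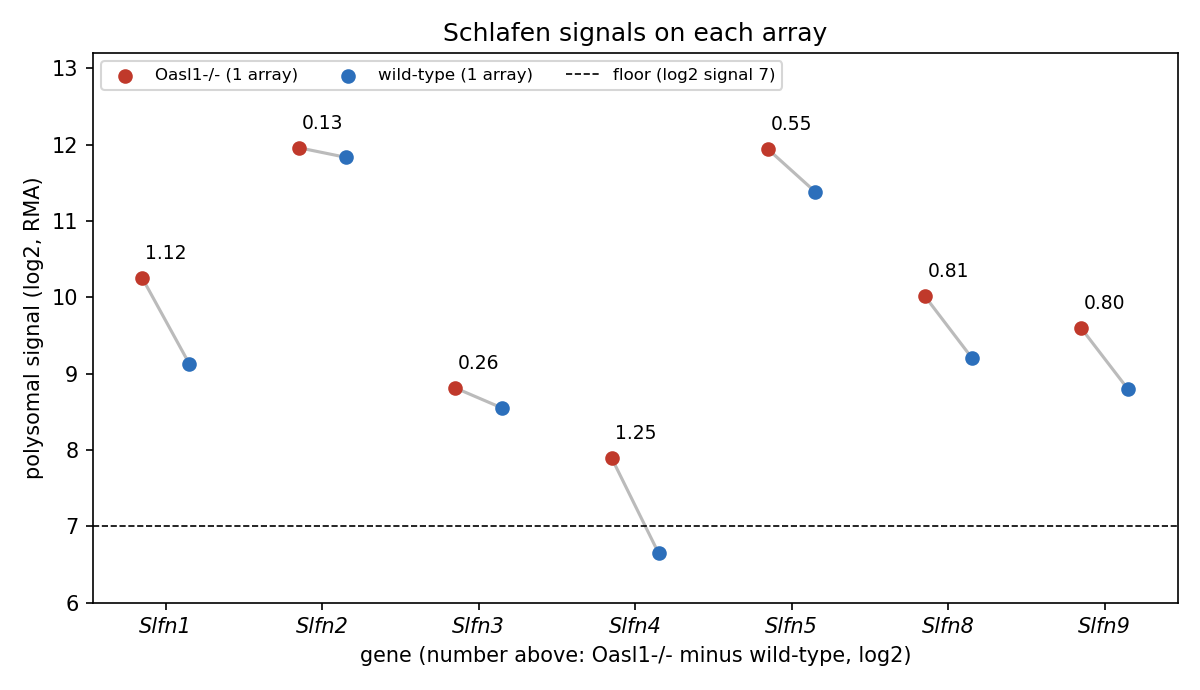
Polysomal log2 signal of each Schlafen gene in Oasl1-/- (left point of each pair) and wild-type (right point), 1 array each, with the difference printed above and the floor of 7 as a dashed line. All 7 left points lie above their partners, and the wild-type signal of Slfn4, 6.64, is the single one under the floor.

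The short forms were set apart from each other. Slfn1, whose forced expression is known to slow the growth of thymocytes, had a log2 signal of 10.25 in the Oasl1-/- array and 9.13 in the wild-type array. The difference of 1.12 (2.18-fold) placed it at rank 92 from the top of the 7835 genes. Slfn2, which is known to keep T cells and monocytes quiescent and to protect tRNA from cleavage in T cells, had 11.96 in the Oasl1-/- array and 11.83 in the wild-type array. Its difference of 0.13 placed it at rank 2080, and it was 0.21 above the median gene. The differences of Slfn1 and Slfn2 lay 1.00 apart on the log2 scale.

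The intermediate forms also had unequal differences. Slfn4, which is known as an interferon-inducible gene of macrophages and myeloid cells, had a log2 signal of 7.89 in the Oasl1-/- array and 6.64 in the wild-type array. The difference as measured was 1.25 (2.37-fold), at rank 71. It passed the floor through the Oasl1-/- array alone, so it could enter the counts above only by being higher there. Its wild-type signal was below the floor and below 7.13, the value that bounds the central 95% of 5222 intron controls from above on that array, whereas the Oasl1-/- signal was 0.55 above the same limit of its own array, 7.34. With the wild-type signal set to that limit of 7.13, Slfn4 was 1.70-fold higher in the Oasl1-/- array. This value, called the bound of Slfn4 here, is no strict minimum, since the intron limit of the Oasl1-/- array was higher. This bound does not reach 2-fold. It was 0.76 on the log2 scale, at rank 234 with all other genes left as measured. Slfn3, a near relative that has been studied in T cells and, in the rat, in intestinal epithelium, had 8.81 in the Oasl1-/- array and 8.55 in the wild-type array. It differed by 0.26 (1.20-fold), at rank 1324. This was 0.98 less than Slfn4 as measured and 0.50 less than the bound of Slfn4.

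The long forms were higher by a more even amount. Slfn8 had a log2 signal of 10.02 in the Oasl1-/- array and 9.21 in the wild-type array, a difference of 0.81 (1.75-fold) at rank 204. Slfn9 had 9.59 in the Oasl1-/- array and 8.79 in the wild-type array, a difference of 0.80 (1.74-fold) at rank 206. The differences of this pair, which also have the most similar promoters, were 0.01 apart. Whether their probe sets report each gene alone was not tested, since probe sequences were not used here. Slfn5, whose human counterpart restricts herpesviruses, had 11.94 in the Oasl1-/- array and 11.38 in the wild-type array. It differed by 0.55 (1.47-fold) and stood at rank 451.

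To show how far genes of like signal spread, each member was set beside the other genes past the floor whose mean log2 signal lay within 0.5 of its own. The SD of the differences in these windows was between 0.32 and 0.41. It holds technical and real differences of many genes and is no replicate error. Slfn4 and Slfn1 lay above the central 95% of their windows, which ended at 0.74 and 0.92. For Slfn1, 21 of 1478 such genes (1.42%) differed by at least as much. For Slfn4 these were 19 of 2017 (0.942%) at the measured difference, which rests on a wild-type signal not above background, and 48 (2.38%) at the bound of 0.76. For the bound only Slfn4 was set to the limit, while the genes of its window kept their measured differences. The 0.55 by which its Oasl1-/- signal passed the intron limit of that array was below the window end of 0.74. The other 5 members lay inside. The share that differed by at least as much was 3.14% for Slfn8, 2.92% for Slfn9, 6.49% for Slfn5, 16.3% for Slfn3 and 37.0% for Slfn2. For Slfn2 and Slfn3 the difference was one that many genes of like signal also showed.

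**Figure D3:**
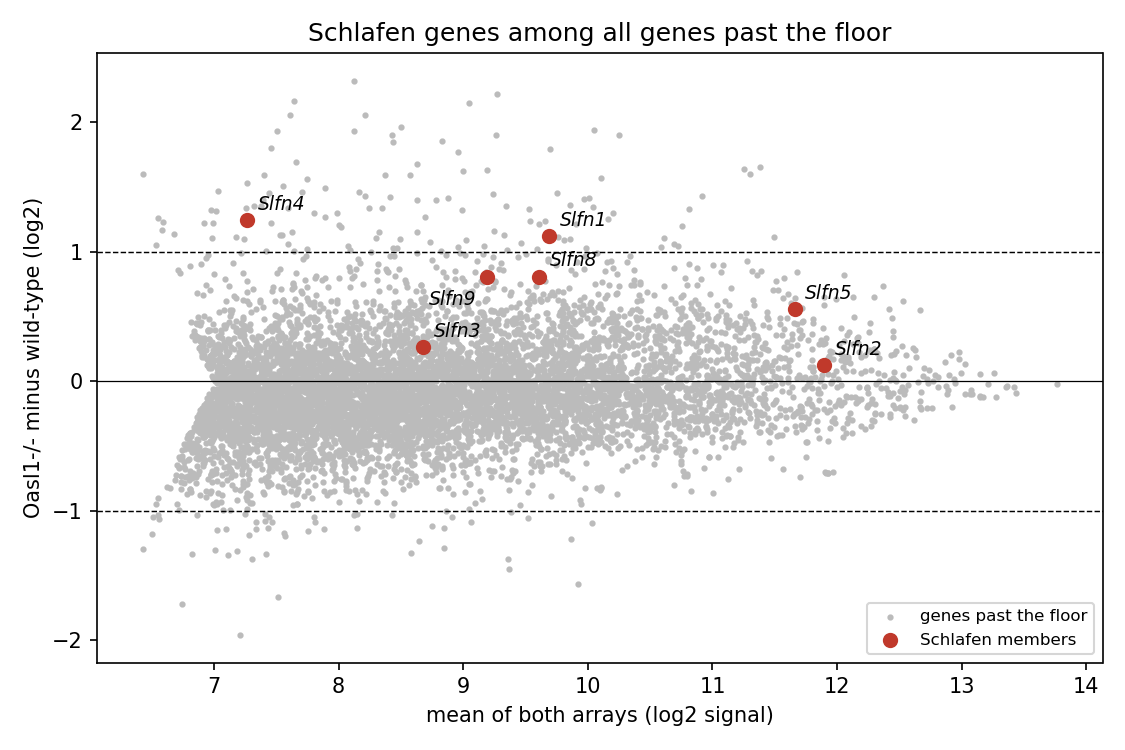
Each point is a gene past the floor, with the mean log2 signal of both arrays on the horizontal axis and the log2 difference, Oasl1-/- minus wild-type, on the vertical axis; dashed lines mark 2-fold. Slfn4 at 1.25 and Slfn1 at 1.12 lie above the upper dashed line, and Slfn2 at 0.13 lies within the bulk of the genes.

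The probe sets of the cluster were placed on build NCBIM37. From low to high coordinate, Slfn5 lay at chromosome 11, 82765604 to 82776443, on the plus strand, and Slfn9 at 82793805 to 82805332 and Slfn8 at 82815647 to 82834312, both on the minus strand. Slfn2 followed at 82878614 to 82884180, Slfn1 at 82930347 to 83129976, Slfn4 at 82988688 to 83003723 and Slfn3 at 83004832 to 83028656, all on the plus strand. The probe sets held 21 to 31 probes each, placed along the transcript. Spans were 5.57 to 23.8 kb long except that of Slfn1, at 199.6 kb. On the same strand this span takes in the probe sets of Slfn4 and Slfn3 whole and 13778 bases of that of Ap2b1, so some of the 25 probes may lie outside Slfn1, and which ones the table does not say. Ap2b1, an adaptor subunit of clathrin-coated vesicles, differed by -0.03, with 10.68 in the Oasl1-/- array and 10.71 in the wild-type array. The part of this placement in the value of Slfn1 was not tested.

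Another Schlafen gene of the cluster, Slfn10, which the current RefSeq table names as a pseudogene, Slfn10-ps, is not among the members. Its signal was 8.53 in the Oasl1-/- array and 7.99 in the wild-type array, a difference of 0.54 (1.45-fold). The span of its probe set covers 18662 bases of that of Slfn8 on the same strand, and which of the pair each probe reports was not tested. Slfnl1, a Schlafen-like gene on chromosome 4, was under the floor on both arrays, with 5.14 in Oasl1-/- and 5.26 in wild-type. Slfn14 was not analysed here.

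Of the 3 nearest named genes on each side of the cluster, Ap2b1, given above, was past the floor on both arrays, and its difference of -0.03 was close to that of the median gene, -0.09. Nle1, a ribosome assembly factor, had 6.88 in the Oasl1-/- array and 7.12 in the wild-type array. It passed the floor through the wild-type array alone and was within the range of intron controls on both arrays, so no direction is read from it. The probe set of Unc45b nearest to the cluster overlaps Slfn5 by 8556 bases on the opposite strand, and at 4.96 in the Oasl1-/- array and 4.78 in the wild-type array it was under the floor. Inside the cluster a probe set annotated to the ribosomal protein gene Rpl12 differed by -0.57, with 9.39 in the Oasl1-/- array and 9.95 in the wild-type array. It is annotated to a single short stretch, and ribosomal protein genes have many processed copies, so its source is uncertain.

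**Figure D4:**
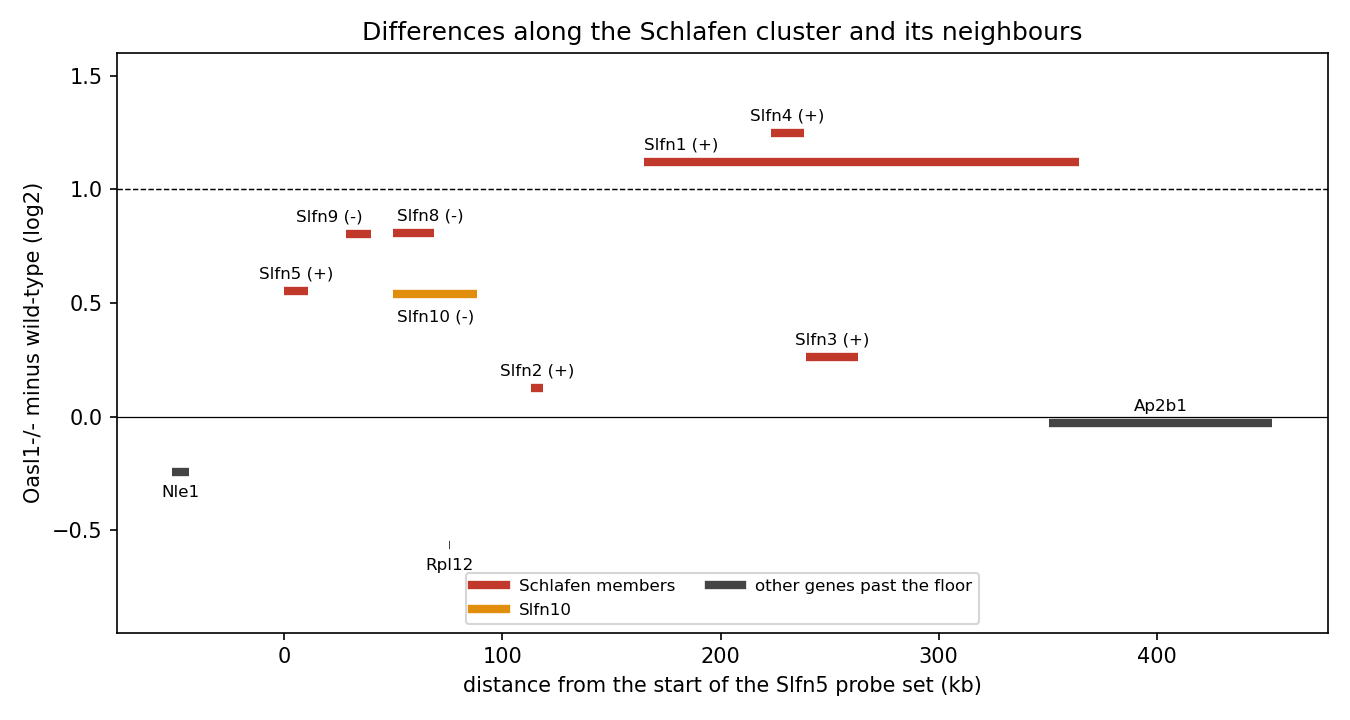
Probe set spans along the cluster, by distance in kb from the start of the Slfn5 probe set, against the log2 difference, Oasl1-/- minus wild-type, with strand signs for Schlafen genes and the neighbours that passed the floor. The Schlafen bars lie between 0.13 and 1.25, Ap2b1 lies at -0.03 and Rpl12 at -0.57. The bar of Nle1, at -0.24, has no direction that can be read, since its signals were within the range of intron controls, and that of Slfn4, at 1.25, rests on a wild-type signal within that range.

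The Schlafen genes were set beside 4 gene lists of pathways with which they are associated. Of 60 interferon-induced genes 58 were found by symbol on the array, and all 58 passed the floor. Of these, 56 were higher in the Oasl1-/- array by any amount and 4 by 2-fold or more, none was 2-fold lower, and their median difference was 0.50 (1.42-fold). The differences of 5 Schlafen members were above that median, Slfn4 also at its bound, and the lowest of them was Slfn5 at 0.55. Of all genes past the floor 5.76% were higher by at least as much as Slfn5. Ifi44 at 1.66, Irf7, the factor that amplifies interferon production, at 1.33 and Phf11, a zinc finger gene, at 1.26 had the largest differences of this list. The genes of it nearest to Slfn4 as measured were Phf11, Irf7 and Ifit1, a sensor of foreign RNA ends, which was 2.14-fold higher. At the bound of Slfn4 11 genes of the list had larger differences, and Oas2, an oligoadenylate synthetase, at 0.78 was nearest. Nearest to the median member were Mx2, an antiviral GTPase, at 0.80, the double-stranded RNA sensor gene Ifih1 at 0.83 and Oas2. Likeness was the gap in log2 difference over 2 arrays, which gives 1 value per gene, so many genes come close.

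Of 20 genes of interferon signalling and double-stranded RNA sensing past the floor, 18 were higher, 2 at least 2-fold, and the median was 0.44. Over all genes past the floor 39.1% were higher and 1.57% at least 2-fold higher. The largest differences of this list were those of the endosomal double-stranded RNA receptor gene Tlr3 at 1.40, of Irf7 and of Usp18, a brake on interferon receptor signalling, at 0.86. In the proliferation and quiescence list, chosen because short Schlafen forms are known to restrain growth, 26 of 28 genes past the floor were lower in the Oasl1-/- array and 2 higher, with a median of -0.45, beside 60.6% lower and a median of -0.09 over all genes. Tyms, thymidylate synthase, at -1.17 was the single one at least 2-fold lower, and none was at least 2-fold higher. Tyms passed the floor through the wild-type array alone, at 8.15. Its Oasl1-/- signal, 6.98, was within the range of intron controls, so the size of its difference rests on a signal not above background. Rrm2, a ribonucleotide reductase subunit, differed by -0.84 and the cyclin gene Ccnd2 by 0.74. The list pools genes of proliferation with genes of quiescence, so its count gives no direction of growth. Among the latter Foxo3 at -0.56, Rbl2 at -0.51, Tob1 at -0.39, Klf2 at -0.23, Cdkn1b at -0.18 and Btg1 at -0.18 were lower too. Tob1 likewise passed the floor through the wild-type array alone, with 6.78 in the Oasl1-/- array and 7.17 in the wild-type array. Cdkn1a differed by 0.02. The 2 higher genes of the list were thus Ccnd2 and Cdkn1a, and every proliferation gene past the floor except Ccnd2 was lower. Of 13 genes of tRNA cleavage and repair 10 were lower and 3 higher, none by 2-fold, with a median of -0.15, beside the same values of all genes. The tRNA methylation genes Mettl1 and Nsun2 differed by -0.69 and -0.44, and the exonuclease gene Xrn1 by 0.41. The Oasl1-/- signal of Mettl1, 7.12, was within the range of intron controls, so the size of its difference rests on a signal not above background.

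**Figure D5:**
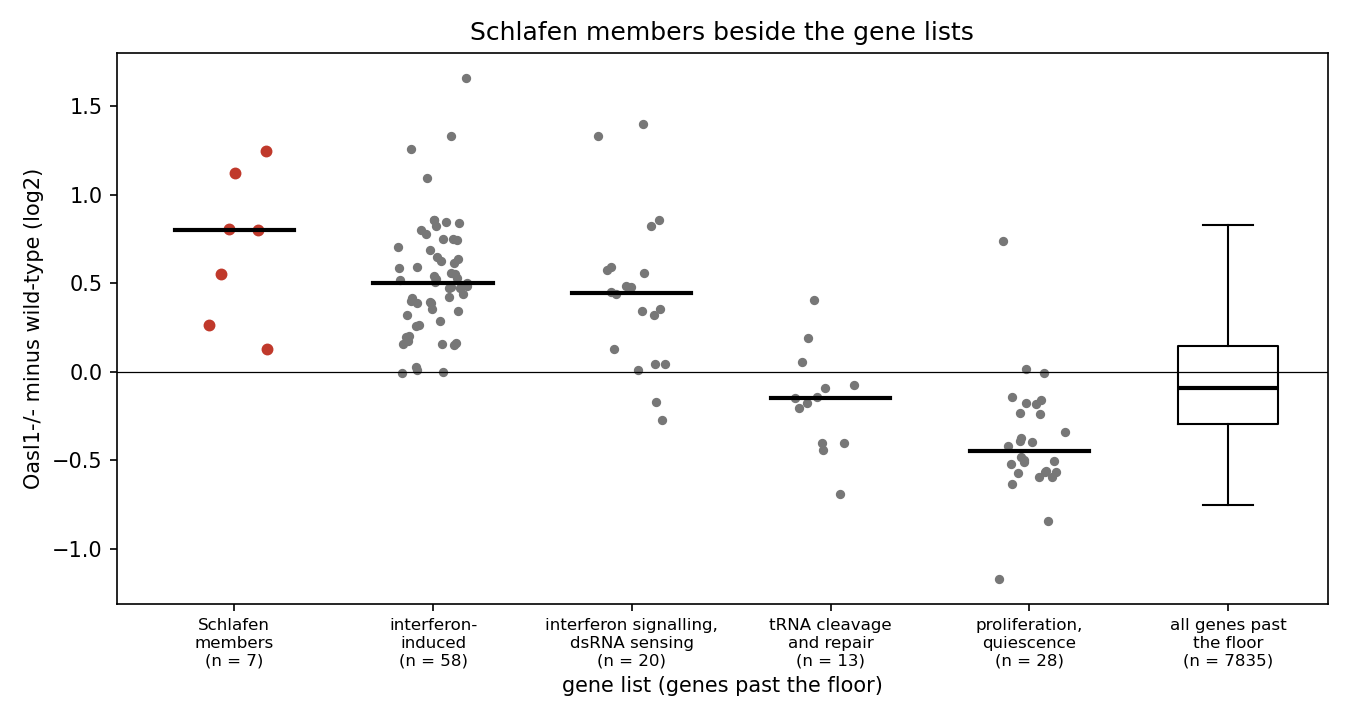
Log2 difference, Oasl1-/- minus wild-type, of each gene past the floor in the Schlafen family and 4 gene lists, with the median as a bar. The box shows the quartiles of all 7835 genes, with whiskers over the central 95%. The Schlafen median is 0.80 and that of the interferon-induced list 0.50, while the proliferation and quiescence list has a median of -0.45.

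Oasl1 itself had a log2 signal of 9.14 in the Oasl1-/- array and 10.70 in the wild-type array, a difference of -1.57. The labels do not name the deleted part of the gene, so signal from probes outside it would not report the deletion. All 10 macrophage markers were past the floor on both arrays, with summed linear signals of 43421 in Oasl1-/- and 38165 in wild-type and differences of 0.00 to 0.63, and their part in the Schlafen differences was not tested. Some Schlafen genes are also known from lymphocytes. Of 7 T cell markers only Cd28 was past the floor, the T cell receptor complex genes Cd3d, Cd3e and Cd3g being under it on both arrays, and the summed signal was 530 in Oasl1-/- and 593 in wild-type. None of the B cell, NK cell, neutrophil, dendritic cell, fibroblast or erythroid markers passed the floor on either array, and their summed signals were 89.7 to 341 in Oasl1-/- and 81.9 to 278 in wild-type.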

How the data were processed

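Polysomal RNA of 1 Oasl1-/- and 1 wild-type macrophage culture was measured on 1 array each, and samples were grouped by the genotype in the labels. The deposited log2 signals are RMA values (background corrected, brought to a shared distribution and summarised per probe set), with GCOS used for the scans, per the submitters' processing notes. The series design text names Expression Console 1.1 and, for R, the affy package 2.9.2. Also deposited was a log2 ratio, which equalled Oasl1-/- minus wild-type within 0.0001 in all 35556 rows, and an unsigned fold. The log2 signals of the deposited series matrix were identical. Coordinates are those of the table, on NCBIM37.

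Each gene was represented by its probe set with the highest mean signal, and it was used when its higher signal was at least 7. No test was possible, so differences were described by counts, ranks and the spread of genes of like signal. Levels of different probe sets depend on their probes, so levels were not compared between genes. The number of arrays limits the precision. RMA removes most of any difference common to all mRNAs. Genes named were the members, other Schlafen genes, those of the 3 named genes on each side of the cluster that passed the floor, Oasl1, the 3 largest absolute differences of each list and the 3 nearest genes; macrophage and other cell markers and Rpl12, which lies inside the cluster, were named beside them. Some genes that the rule takes are not reported here. Members and lists were chosen with earlier results of these data known. Alternatives were centring, loess, quantile normalization, a pseudocount of 32 on the linear scale, other floors and thresholds and, added after the data were seen, raising signals under the intron limit (the value above which 2.5% of intron controls lie) to it and adding Slfn10. Calculations used Python with pandas 2.3.3 and statsmodels 0.14.6, and alignments Biopython 1.88. The procedure was run on simulated data as a check of the code. The planted differences were larger than that of any member and lay well above the floor. The run therefore does not show how differences of the size seen here are recovered.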

Additional observations from a re-analysis of the deposited data

How the results depend on the processing

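Every member stayed higher in the Oasl1-/- array under each alternative scale that was run (centring, loess, quantile normalization, pseudocount of 32, mean over all probe sets, the second table, and signals under the intron limit of their array set to it). The mean over all probe sets could not change a value, since each member has 1 probe set. The second table holds the same signals, so it could not change one either. A pseudocount cannot change the sign of a difference, and the intron limit changed Slfn4 alone. Slfn1 lay between 1.08 and 1.18 on the log2 scale, past 2-fold throughout, and Slfn2 between 0.09 and 0.18. A difference or median was taken as moved when it shifted by over 0.1 or crossed 2-fold, since no replicate spread exists. A count was taken as moved when it changed by over 1.5-fold. This held for 8 of 81 alternative values, and the 81 include the runs that could not change a value. Slfn4 was 1.41 after loess, 1.03 with the pseudocount and 0.76 with its wild-type signal set to the intron limit, as follows from that signal being under it. With that setting, added after the data were seen, 1 member, Slfn1, was at least 2-fold higher, and likewise 1 with a floor of 8, which leaves Slfn4 out. At the 1.5-fold threshold 4 members were higher. The median member was 0.68 with a floor of 8 and 0.68 with Slfn10 added. Centring raised the difference of every gene by 0.06, and loess raised it by a median of 0.09 over the genes past the floor. No paired analysis was possible because each genotype has 1 array, and no array could be left out for the same reason. Signal over background limits Slfn4 alone among the members.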
